A study of Capra hircus with 21 samples.

Results

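The step from the morula to the blastocyst was compared across all genes in goat (Capra hircus) embryos that had developed in the animal: 3 morula libraries against 3 blastocyst libraries, lettered A to C, out of 21 libraries of 7 stages from the oocyte onwards. All 19040 listed genes entered, and 10384 of them had enough reads to be tested. The labels give the stage and the tissue (embryos) of each sample. They give no treatment, breed or age, and neither the number of embryos per library nor the number of animals behind a stage, so the p-values rest on a spread between libraries that may be technical in part or in whole. For morula A the label adds that its reverse reads were damaged and left out of the raw data, and whether the deposited values used them is not stated.

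A morula is a ball of cells that have begun to flatten against each other. The blastocyst that follows holds a fluid-filled cavity, an outer epithelium called the trophectoderm, which forms the embryonic part of the placenta, and an inner cell mass, from which the epiblast and the primitive endoderm arise. Sodium pumps, ion channels and water channels move fluid inward across the sealed epithelium, and the Hippo pathway, in which the kinases LATS1 and LATS2 hold back the co-activators YAP1 and WWTR1, takes part in setting outer cells apart from inner cells. In bulk libraries such as these, fewer cells of a type and less RNA per cell cannot be told apart.

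Values are RPM, read counts scaled to a common library total. The deposited RPKM values were multiplied back by the span of the gene, because they had been divided by the whole distance from start to stop, introns included. Levels of different genes are therefore not compared. Every comparison was made on 2 scales. The first is RPM as it stands. On the second, called rescaled, the 15 genes of chromosome M were left out and the other listed genes were brought to the same sum in every library. A gene was said to rise or fall when limma gave an adjusted p below 0.05 and a log2 fold change of at least 1 in size on log2(RPM + 1); errors of fold changes are standard errors and those of means are SD over 3 libraries.

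Libraries differed before any gene was compared. Reads in listed genes came to 8.47 to 22.2 M per morula library and 11.05 to 14.3 M per blastocyst library, and 3 reads, taken as the floor of detection, amounted to 0.0482 to 0.125 RPM. Morula C stood apart from its stage mates. On the first principal component it lay at 38.9, against 127 and 130.5 for morulae A and B and 155 to 157 for the blastocysts. It thus lay below 16-cell A and B (57.25 and 61.2) but above 16-cell C (-3.65), which stood apart from its own stage mates. Oocytes and earlier cleavage stages also lay below 0. Genes typical of cumulus and granulosa cells summed to 92.9 RPM in morula C, against 2.83 and 1.499 RPM in morulae A and B and 1.19 to 4.5995 RPM in blastocysts. In that list TNFAIP6 was at 38.7 RPM, VCAN at 41.9 RPM and STAR at 12.3 RPM in morula C, CYP11A1 at 0.0803 RPM, the other 5 members had no read there, and PTX3 stayed at or below 3 reads in all 6 libraries. VCAN and STAR were also high in the oocyte libraries (means of 64.4 and 39.01 RPM). Leukocyte markers summed to 3.58 to 5.16 RPM in morulae and 8.48 to 13.2 RPM in blastocysts, most of it from CORO1A, with S100A12 at or below 3 reads throughout. Erythrocyte markers summed to 0.0417 to 0.161 and 0.0568 to 0.155 RPM, oviduct and uterine epithelium markers to 1.25 to 1.71 and 0.155 to 1.19 RPM. Stromal and muscle markers summed to 22.3 to 66.1 and 34.1 to 76.9 RPM, with TAGLN at 0 in all 6. The part that other cells may have in the results was not tested. Results are given with and without morula C where it changed them.

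Mitochondrial transcripts took up far more of the blastocyst libraries. They made up 9.77, 13.7 and 3.23% of gene reads in morulae A to C (8.92 ± 5.31%) and 30.8, 45.8 and 33.7% in blastocysts A to C (36.8 ± 7.96%). The libraries of the stages did not overlap, and the exact two-sided permutation p was 0.1, the smallest that 3 against 3 can give. Counting error was small beside this spread, since no 95% Wilson interval was wider than 0.0544 percentage points. Earlier stages had means of 1.74% (oocyte), 1.94% (2-cell), 2.64% (4-cell), 3.37% (8-cell) and 10.2% (16-cell), so the rise at the blastocyst followed a smaller one between the 8-cell and 16-cell stages. Taken as a share of the total to which the values had been scaled, implied by the size of 1 read, the mitochondrial share went from 3.15 ± 1.87% to 10.9 ± 3.11%. Listed genes took 35.2, 35.3 and 35.6% of that implied total in morulae and 24.4, 24.9 and 40.5% in blastocysts, so blastocysts A and B also held more reads outside the listed genes than blastocyst C. The number of genes detected also differed between the stages. Genes with at least 1 RPM numbered 7173, 6678 and 8217 in morulae and 6572, 6003 and 6545 in blastocysts (7356 ± 786 against 6373 ± 321, exact permutation p = 0.1). Rescaling multiplied morulae by 0.955 to 1.08 and blastocysts A, B and C by 1.95, 2.44 and 1.23; taking the mitochondrial reads out of the implied total alone would have multiplied blastocysts by 1.08 to 1.16. After rescaling the direction reversed, with 7379 ± 669.9 in morulae and 7668 ± 736 in blastocysts (exact permutation p = 0.7). How much of this came from the mitochondrial reads was not tested.

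**Figure D1:**
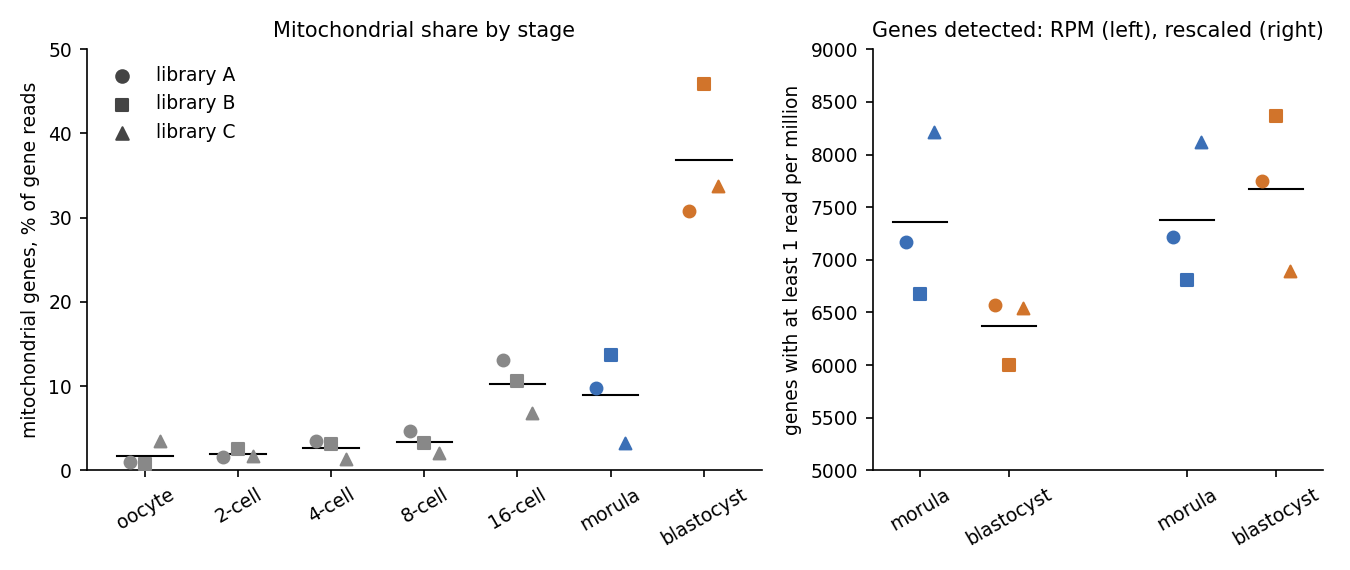
Left, mitochondrial genes as a percent of gene reads in each of the 21 libraries by stage; right, genes with at least 1 RPM in morulae (blue) and blastocysts (orange), as RPM and after mitochondrial genes were left out and the rest rescaled (axis from 5000). Points are libraries and bars are stage means: all 3 blastocysts lie above 30% on the left, and the lower number of genes detected in blastocysts (6373 against 7356) is not seen after rescaling (7668 against 7379).

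Of 10384 genes tested in RPM, 804 rose (7.74%) and 2923 fell (28.1%) from morula to blastocyst. Rescaled, 1653 of 10451 rose (15.8%) and 1776 fell (17.0%). The share of rises among calls thus went from 21.6% to 48.2%, and the median log2 fold change of all tested genes from -0.50 to -0.13. Of the 804 rises, 794 were also called when rescaled, and the other 10 were not tested there, 9 of them being mitochondrial. Rescaling raised the log2 fold change by a median of 0.57, so a rise in RPM could hardly be lost on that scale. Falls held in part: 1774 of the 2923 were called on both scales, 1149 only in RPM, and none turned into a rise. Over the genes tested on both, rises on both scales were 7.77% and falls on both 17.4%. Without morula C, 813 genes rose (7.83%) and 2458 fell (23.7%) in RPM, with 677 of the 804 rises and 2265 of the 2923 falls kept. Fitted on the 6 morula and blastocyst libraries alone, 331 rose and 951 fell, and on RPKM values, where 4253 genes could be tested, 167 rose (3.93%) and 1077 fell (25.3%). In RPM all 3 blastocysts lay above all 3 morulae for 8.76% of tested genes and below them for 31.2%. With quantile scaling, rises were 50.6% of calls, and with median-ratio scaling 53.6%. With mitochondrial reads taken out of the implied total and no further rescaling they were 24.9%. Counts in the gene lists below are to be read against the shares of all genes. These were 7.74% rises and 28.1% falls in RPM, and 15.8% and 17.0% when rescaled.

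**Figure D2:**
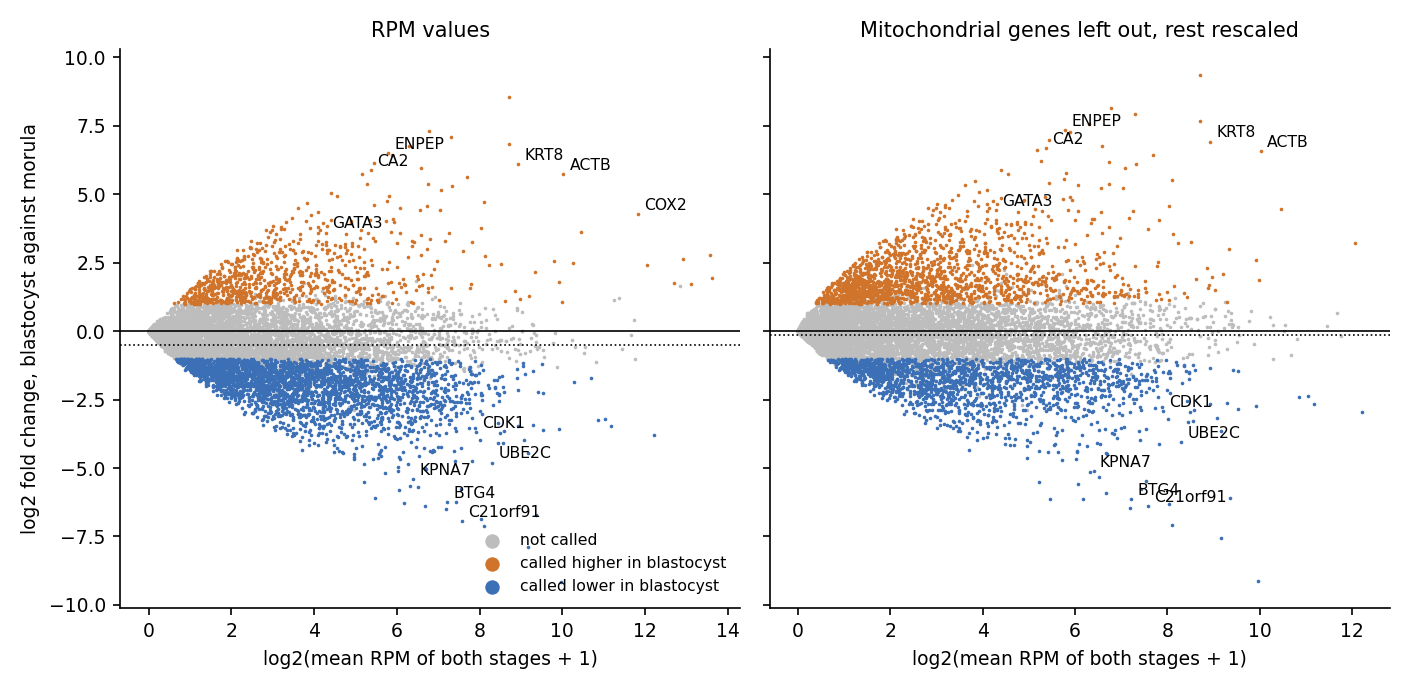
Log2 fold change from morula to blastocyst (vertical) against log2 of the mean RPM of both stages plus 1 (horizontal) for each tested gene, in RPM (left) and with mitochondrial genes left out and the rest rescaled (right); orange points were called higher and blue points lower in blastocysts, and dotted lines mark the median gene. The median lies at -0.50 on the left and -0.13 on the right, while ENPEP, KRT8, CA2 and ACTB lie above 5 on both sides.

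The earlier stages were set beside these calls. Of the 794 that rose on both scales, 690 (86.9%) had their highest stage mean in the blastocyst (14.6% of all genes tested on both scales). These genes were chosen by the same morula and blastocyst values, so an excess of blastocyst peaks was built in. Of the same 794, 308 (38.8%) had stayed under 1 RPM at every stage up to the 8-cell embryo, against 13.6% of all genes. A gene this low could enter the test through the 3 blastocysts alone, as a rise but hardly as a fall. Part of this second excess may thus have been built in as well, and how much was not counted. Of the 1774 that fell on both scales, 907 (51.1%) were highest somewhere between the oocyte and the 8-cell stage and 867 (48.9%) at the 16-cell or morula stage, against 57.3% and 28.1% of all genes. The choice of falls left none with a blastocyst peak, so their shares and those of all genes are not on a like footing. Libraries within a stage also fell into an order. Among these 1774 genes, morula C was the highest morula for 1093 (61.6%), and blastocyst B, the library with the most mitochondrial reads, was the lowest blastocyst for 1264 (71.3%) in RPM and 1053 (59.4%) when rescaled. Blastocyst C was the highest blastocyst for 1128 of them (63.6%) in RPM. Among the 794 rises in RPM the highest blastocyst was A for 169, B for 344 and C for 281, and morula A was the highest morula for 412 (51.9%). Rescaled, blastocyst B was the highest blastocyst for 499 of them (62.8%) and blastocyst C the lowest for 543 (68.4%).

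The largest rises among genes with a symbol included ENPEP, KRT8 and ACTB. The 15 largest rises, and the 15 largest falls below, were picked among called genes whose morula and blastocyst libraries did not overlap. ENPEP, a peptidase of the cell surface, was at 0.339, 0 and 0.161 RPM in morulae A to C and 131, 124 and 69.9 RPM in blastocysts A to C (log2 fold change 6.51 ± 0.31, adjusted p = 3.38e-13; rescaled 7.35). The gene lies on chromosome 6 from 15224588 to 15307680 in the coordinates of the table, whose genome build is not given. KRT8, a keratin of simple epithelia, went from 11.3, 10.2 and 16.5 RPM to 766, 1337 and 769 RPM (6.11 ± 0.46, adjusted p = 9.18e-10; rescaled 6.93). ACTB, cytoplasmic beta-actin, went from 41.2, 31.03 and 29.6 RPM to 1833, 3239.8 and 1084 RPM (5.75 ± 0.44, adjusted p = 1.37e-09; rescaled 6.57). Separation of the stages was thus a condition of the choice. Blastocyst B was the highest for KRT8 and ACTB. Actin genes are near-identical copies, so reads may be shared between them.

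Other large rises were picked in the same way. ANXA3, a calcium-dependent phospholipid-binding protein, had no read in morulae A and B, 0.626 RPM in morula C and 101, 52.01 and 197 RPM in blastocysts (6.44 ± 0.45, adjusted p = 2.99e-10). CSRP2, a LIM-domain protein of the cytoskeleton, went from 0.339, 4.79 and 2.17 RPM to 119, 180.3 and 263 RPM (5.94 ± 0.47, adjusted p = 1.97e-09). PLSCR1, a phospholipid scramblase, went from 0.232, 0 and 0.771 RPM to 71.7, 59.4 and 77.6 RPM (5.76 ± 0.39, adjusted p = 1.69e-10). Transporters were among them. The zinc importer SLC39A8 went from 9.19, 1.79 and 3.37 RPM to 236, 231 and 157 RPM (5.36 ± 0.43, adjusted p = 3.23e-09), and the glutamate transporter SLC1A1 from 38.1, 2.75 and 1.45 RPM to 291, 210.3 and 262 RPM (5.16 ± 0.59, adjusted p = 7.11e-07). RIMKLB, a ligase that joins glutamate to N-acetylaspartate, went from 47.2, 4.16 and 0.417 RPM to 366, 379.5 and 157 RPM (5.31 ± 0.73, adjusted p = 1.01e-05). SLC1A1 and RIMKLB were already higher in morula A than in morulae B and C. The remaining large rises were FAM83B (5.04), PHLDB2 (4.95), PKIA, an inhibitor of protein kinase A (4.599), and SLC35G1 (4.57), with CA2 and DAB2 described below. All 15 were called without any single library. They were also called when rescaled, a scale that favours rises.

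The largest falls were of genes with 2 kinds of history. C21orf91 was at 214, 397 and 522 RPM in morulae and 2.05, 1.05 and 2.87 RPM in blastocysts (-6.94 ± 0.42, adjusted p = 2.28e-11; rescaled -6.39); it had peaked at the 16-cell stage (mean 768 RPM). TMEM37 went from 42.7, 83.1 and 302 RPM to 0.287, 0.0351 and 0.823 RPM (-6.27 ± 0.58, adjusted p = 2.74e-08), also from a 16-cell peak. LXN, an inhibitor of carboxypeptidases, was highest in morulae, at 66.5, 103 and 42.5 RPM, and fell to 0.9498, 0.755 and 2.81 RPM (-4.84 ± 0.67, adjusted p = 1.08e-05). SOAT1, which esterifies cholesterol, went from 112, 149 and 182 RPM to 5.72, 1.83 and 5.87 RPM (-4.85 ± 0.41, adjusted p = 7.95e-09). For these 4, too, libraries that did not overlap were a condition of the choice.

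The second kind was high from the oocyte on. BTG4, an adaptor of the deadenylase that removes maternal mRNA, had a mean of 7537 RPM in oocytes, 25.4, 46.4 and 812 RPM in morulae and 0.1104, 0.123 and 0.823 RPM in blastocysts (-6.26 ± 0.78, adjusted p = 2.25e-06; rescaled -6.13). KPNA7, an importin of oocytes and early embryos, went from 25.95, 56.1 and 415 RPM to 0.685, 0.1404 and 3.43 RPM (-5.40 ± 0.71, adjusted p = 3.71e-06). TM6SF1 went from 16.98, 34.4 and 166 RPM to 0, 0.0526 and 0.0568 RPM (-5.51 ± 0.55, adjusted p = 7.53e-08), and TBPL1, a relative of the TATA-binding protein, from 49.5, 114 and 443 RPM to 3.14, 0.948 and 7.83 RPM (-5.05 ± 0.57, adjusted p = 5.01e-07). In these 4 genes morula C was by far the highest morula, and each was still called without it. KITLG, the ligand of the receptor KIT, was at 106, 134 and 64.3 RPM in morulae and 2.39, 0.544 and 2.72 RPM in blastocysts (-5.19 ± 0.47, adjusted p = 1.76e-08), while KIT itself rose from 2.32, 2.999 and 15.99 RPM to 33.6, 15.95 and 16.97 RPM (1.85 ± 0.49, adjusted p = 0.00471), with morula C level with the lowest blastocyst. The other large falls were RHEBL1 (-4.96), UBE2C (-4.80), TMCO1 (-4.76), the bromodomain gene BRDT (-4.73), the ubiquitin ligase RNF138 (-4.69) and SDR16C5 (-4.68); all 15 were called on both scales and without any single library.

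Most tested trophectoderm genes rose. Of 15, 9 rose and 2 fell in RPM, with a median log2 fold change of 2.06 against -0.50 over all genes. Rescaled, 10 rose and 2 fell (median 2.81 against -0.13), the falls being 1 without morula C or blastocyst B. Of all genes, 7.74% rose and 28.1% fell in RPM, and 15.8% and 17.0% when rescaled. In this and the other lists a gene could enter the test by reaching 1 RPM in the 3 blastocysts alone. Such a gene could count as a rise but hardly as a fall, and how many entered in this way was not counted. GATA3, a transcription factor of the trophectoderm, was at 0.464, 0.375 and 8.24 RPM in morulae and 29.4, 54.8 and 18.6 RPM in blastocysts (3.60 ± 0.63, adjusted p = 0.000113; rescaled 4.43). GATA2 went from 0.517, 0.292 and 2.41 RPM to 20.6, 21.8 and 7.86 RPM (3.12 ± 0.41, adjusted p = 4.21e-06), and TFAP2A from 1.195, 0.916 and 2.39 RPM to 18.6, 27.04 and 11.2 RPM (2.96 ± 0.42, adjusted p = 9.34e-06). For all 3 factors morula C was the highest morula and blastocyst C the lowest blastocyst, yet the stages did not overlap. GATA3 was not silent earlier: its 2-cell mean was 19.6 RPM, above its morula mean of 3.03 RPM.

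Other trophectoderm genes rose from different starting points. KLF5, a zinc-finger factor, was present in all morulae and went from 214, 133 and 21.8 RPM to 597, 320.2 and 516 RPM (2.41 ± 0.54, adjusted p = 0.00119); without morula C its change was 1.45 and still called. ELF3 went from 0, 0.125 and 0.482 RPM to 2.52, 10.53 and 3.29 RPM (2.24 ± 0.39, adjusted p = 9.21e-05), ARID3A from 0.731, 0.875 and 0.514 RPM to 5.897, 13.4 and 2.61 RPM (2.06 ± 0.30, adjusted p = 1.42e-05) and LGALS3, a galectin, from 24.6, 19.5 and 17.95 RPM to 240.3, 154 and 455 RPM (3.58 ± 0.39, adjusted p = 3.12e-07). FGFR2, the fibroblast growth factor receptor of the list, went from 1.46, 4.998 and 1.35 RPM to 6.78, 8.98 and 4.14 RPM (1.18 ± 0.34, adjusted p = 0.00824), but its libraries overlapped and the call ended without morula A, morula C or blastocyst B. KRT19 was high in blastocyst B alone (1.35, 70.002 and 0.908 RPM against 2.34, 0.583 and 0.546 RPM in morulae) and was not called (adjusted p = 0.112). TEAD4 (log2 fold change 0.19, adjusted p = 0.559) and EOMES (-0.65, 0.159) did not pass, and GRHL1 was called when rescaled only (1.55, adjusted p = 0.000729). The 2 falls were BMP4, from 14.3, 24.7 and 40.3 RPM to 0.994, 0.526 and 1.42 RPM (-3.70 ± 0.37, adjusted p = 8.65e-08; rescaled -3.29), and TFAP2C, from 8.56, 6.66 and 12.2 RPM to 3.71, 0.684 and 3.46 RPM (-1.59 ± 0.33, adjusted p = 0.000542; rescaled -1.05).

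The other 9 listed trophectoderm genes were too low to be tested. CDX2, a homeobox factor of the trophectoderm, was at 0.0535, 0 and 0 RPM in morulae and 1.303, 1.35 and 0.369 RPM in blastocysts, so that it was above every morula but short of 1 RPM in 3 libraries. DLX3 was at 0.4197, 4.598 and 0.454 RPM and GRHL2 at 0.751, 0.228 and 0.284 RPM in blastocysts. Among genes of ruminant trophoblast secretion 2 of 7 tested rose and 2 fell in RPM (4 and 2 when rescaled, with 1 fall without morula C or blastocyst B). Over all genes the shares were 7.74% and 28.1% in RPM, and 15.8% and 17.0% when rescaled. PTGS2, the inducible cyclooxygenase of prostaglandin synthesis, went from 0.107, 0 and 0 RPM to 33.3, 3.93 and 14.4 RPM (3.73 ± 0.38, adjusted p = 1.56e-07) and PLAU, the urokinase, from 10.04, 3.46 and 0 RPM to 99.9, 12.2 and 78.2 RPM (3.69 ± 0.65, adjusted p = 0.000168). The lysolipid transporter MFSD2A went from 2.35, 4.71 and 1.24 RPM to 0 in every blastocyst, at least 40.7-fold lower against a floor of 3 reads per library, and PTGES3 from 20.2, 26.4 and 51.3 RPM to 11.5, 1.21 and 7.92 RPM (-2.31 ± 0.54, adjusted p = 0.00152).

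**Figure D3:**
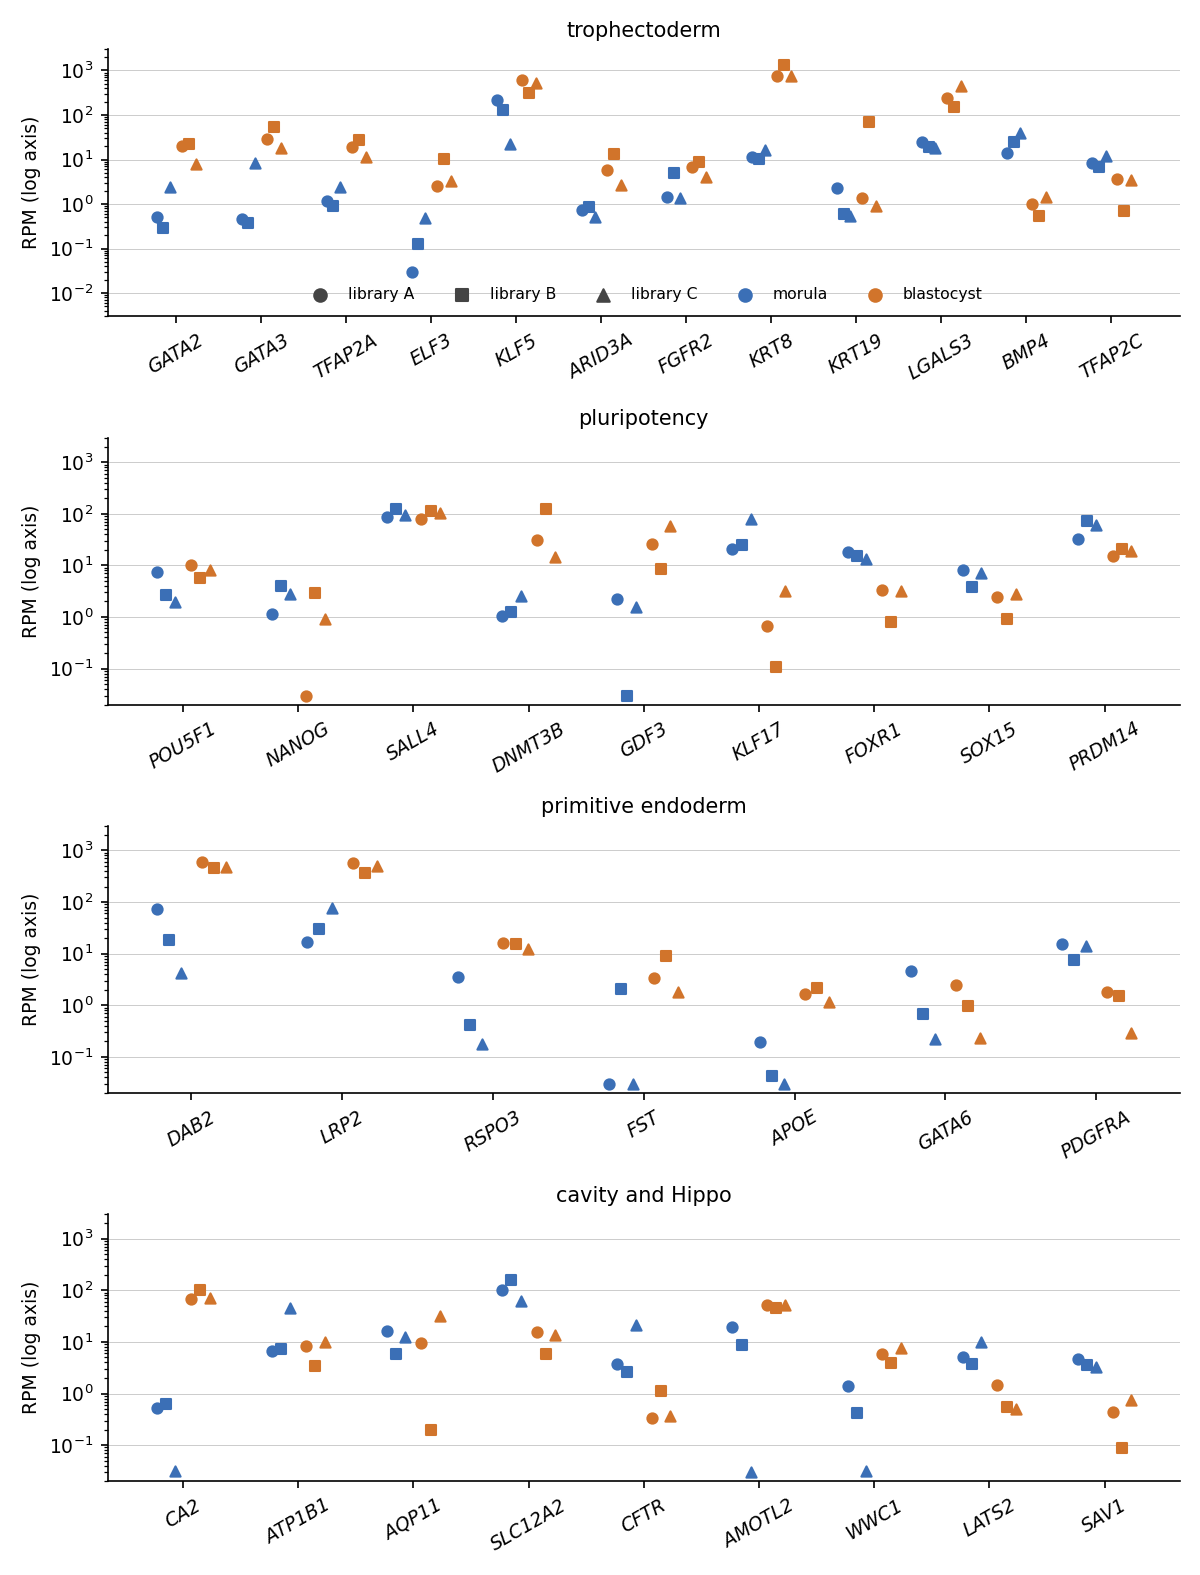
Level (RPM, log axis) of genes of the trophectoderm, pluripotency, primitive endoderm, cavity and Hippo lists in each morula (blue) and blastocyst (orange) library, with symbols for libraries A to C; values under 0.03 RPM are drawn at 0.03, and DNMT3B, of the DNA methylation list, is drawn beside the pluripotency genes. GATA2, GATA3, TFAP2A, KRT8 and CA2 lie higher in every blastocyst, BMP4, KLF17 and SLC12A2 lower, and SALL4, GATA6 and ATP1B1 overlap.

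Pluripotency genes moved both ways, and their falls were no more frequent than those of all genes. Of 19 tested in RPM, 3 rose and 5 fell (all genes 7.74% and 28.1%; median -0.72), and rescaled, 5 of 20 rose and 2 fell (all genes 15.8% and 17.0%; median -0.36). Without morula A, 5 rose and 8 fell in RPM, and without blastocyst B, 4 fell when rescaled. POU5F1, the factor also called OCT4, went from 7.46, 2.65 and 1.956 RPM to 10.3, 5.64 and 8.004 RPM; it missed the fold limit in RPM (0.96 ± 0.38, adjusted p = 0.05) and rose when rescaled (1.70, adjusted p = 0.00176). NANOG, at 1.14, 4.04 and 2.79 RPM in morulae and 0.0221, 2.89 and 0.908 RPM in blastocysts, was called on neither scale (adjusted p = 0.0591 and 0.494). SALL4 lay at 86.02, 124 and 94.5 RPM and 77.8, 111 and 104 RPM (-0.05 ± 0.32, adjusted p = 0.914; rescaled 0.76, adjusted p = 0.0652). SOX2, too low to be tested in RPM, was at 3.23, 1.37 and 0.658 RPM in morulae and 0.552, 0.456 and 0.369 RPM in blastocysts.

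The rises included GDF3, a TGF-beta family ligand, from 2.27, 0 and 1.59 RPM to 25.4, 8.39 and 58.9 RPM (3.59 ± 0.65, adjusted p = 0.000146), and ESRRB. The ESRRB call (1.16 ± 0.45, adjusted p = 0.0428) rested on single libraries: without morula C the change was 0.51, and the call was lost without morula C or any one blastocyst (adjusted p up to 0.36). The clearest fall was of KLF17, a Krüppel-like factor, from 20.98, 24.5 and 78.4 RPM to 0.663, 0.105 and 3.21 RPM (-4.16 ± 0.50, adjusted p = 1.10e-06; rescaled -3.90). FOXR1 fell from 18.03, 15.03 and 13.3 RPM to 3.31, 0.807 and 3.24 RPM (-2.35 ± 0.44, adjusted p = 0.000218; rescaled -1.80). KLF4, from 350.1, 411 and 284 RPM to 175, 45.05 and 175 RPM (-1.62 ± 0.46, adjusted p = 0.00681), PRDM14 (-1.46 ± 0.39, adjusted p = 0.00437) and SOX15 (-1.29 ± 0.40, adjusted p = 0.0126) fell in RPM only; rescaled they were at -0.81, -0.68 and -0.75 and not called. KLF4 and SOX15 were also not called without blastocyst B (adjusted p 0.0656 and 0.0865). Of the other tested members TBX3 rose when rescaled only (1.90), and SALL1, LIN28A, LIN28B, ETV5, PRDM1, DUSP6 and STAT3 were called on neither scale.

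In the primitive endoderm list 5 of 18 tested genes rose and 2 fell in RPM (median -0.18), against 7.74% and 28.1% of all genes. Rescaled, 6 of 17 rose and 1 fell (median 0.34, with 2 falls without morula A), against 15.8% and 17.0% of all genes. Rises of this list included genes of endocytosis. DAB2, an adaptor for cargo receptors, went from 72.5, 18.4 and 4.19 RPM to 608, 466 and 473 RPM (4.72 ± 0.55, adjusted p = 7.99e-07; rescaled 5.53), and LRP2, the receptor megalin, from 16.8, 29.8 and 75.99 RPM to 582, 366 and 496 RPM (3.77 ± 0.45, adjusted p = 9.43e-07; rescaled 4.58). RSPO3, an enhancer of WNT signalling, went from 3.53, 0.416 and 0.177 RPM to 16.4, 15.5 and 12.5 RPM (3.002 ± 0.31, adjusted p = 1.35e-07), and follistatin, FST, from 0, 2.08 and 0 RPM to 3.31, 8.81 and 1.82 RPM (1.76 ± 0.37, adjusted p = 0.000608). APOE, a lipoprotein component, went from 0.196, 0.0416 and 0 RPM to 1.63, 2.18 and 1.16 RPM (1.29 ± 0.16, adjusted p = 2.24e-06). GATA6, a defining factor of that lineage, was at 4.71, 0.666 and 0.225 RPM and 2.47, 0.965 and 0.227 RPM and was not called (-0.16 ± 0.38, adjusted p = 0.775). PDGFRA, its receptor kinase marker, fell from 15.7, 7.45 and 14.1 RPM to 1.81, 1.51 and 0.284 RPM (-2.63 ± 0.44, adjusted p = 6.56e-05; rescaled -2.10), and HHEX fell in RPM only (-1.48 ± 0.40, adjusted p = 0.00496; rescaled -0.90). GATA4 and HNF4A were too low to be tested, with 0.4197, 0.404 and 0.1703 and 0.1104, 0.105 and 0.0568 RPM in blastocysts. DAB2, LRP2 and RSPO3 thus lay above every morula in every blastocyst, GATA6 overlapped and PDGFRA lay below. Laminin gene LAMC1 rose when rescaled only (1.56), and LAMB1, FN1, BMP2, CUBN, P4HA1, P4HA2, CTSZ and FLRT3 were not called.

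In the list of transporters that fill the cavity, 3 of 13 tested genes rose and 2 fell in RPM (all genes 7.74% and 28.1%; median -0.65; rescaled 4 and 2 against 15.8% and 17.0%, median -0.18), and without morula A or morula B 4 fell; rescaled, 1 fell without morula C. CA2, the carbonic anhydrase that interconverts carbon dioxide and bicarbonate, went from 0.535, 0.625 and 0.0321 RPM to 68.8, 100.4 and 71.4 RPM (5.87 ± 0.32, adjusted p = 2.64e-12; rescaled 6.69). SLC9A3R1, a scaffold of the sodium-proton exchangers, went from 1.39, 0.292 and 0.0161 RPM to 6.78, 2.68 and 3.72 RPM (1.81 ± 0.29, adjusted p = 3.69e-05). ATP6V1A, a subunit of the proton pump, was called (1.65 ± 0.55, adjusted p = 0.021) but not without morula C, blastocyst A or blastocyst C (adjusted p up to 0.186). ATP1B1, the beta subunit of the sodium pump, was at 6.71, 7.33 and 46.2 RPM in morulae and 8.53, 3.44 and 10.2 RPM in blastocysts and was not called (-0.89 ± 0.52, adjusted p = 0.174). The water channel AQP11 ranged from 0.193 to 31.6 RPM among blastocysts (-0.65 ± 0.76, adjusted p = 0.524), and AQP3 and AQP9 were too low to be tested. SCNN1G, SLC4A4, CLCN3 and ATP6V0C were called on neither scale. SLC12A2, the sodium-potassium-chloride cotransporter, fell from 99.3, 157 and 61.8 RPM to 15.9, 5.896 and 13.8 RPM (-3.06 ± 0.41, adjusted p = 4.64e-06; rescaled -2.31). CFTR, the chloride channel, fell from 3.76, 2.62 and 21.2 RPM to 0.331, 1.11 and 0.369 RPM (-2.21 ± 0.52, adjusted p = 0.00182); without morula C, its highest library, the change was -1.41.

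In the Hippo list 2 of 15 tested genes rose and 4 fell in RPM (median -0.36), against 7.74% and 28.1% of all genes. Rescaled, 3 of 16 rose and 2 fell (median 0.10), against 15.8% and 17.0% of all genes. Falls were thus no more frequent than over all genes on either scale. Without morula C, 2 fell in RPM. AMOTL2, an angiomotin that binds the co-activators, went from 19.2, 8.79 and 0 RPM to 51.7, 44.7 and 52.1 RPM (3.11 ± 0.61, adjusted p = 0.000461); without morula C, where it had no read, the change was 1.84 and still called. WWC1, the upstream activator also called KIBRA, went from 1.43, 0.416 and 0.0321 RPM to 5.79, 3.896 and 7.58 RPM (2.11 ± 0.26, adjusted p = 1.94e-06). The kinase LATS2 fell from 5.12, 3.79 and 9.91 RPM to 1.48, 0.544 and 0.511 RPM (-1.93 ± 0.35, adjusted p = 0.000137, rescaled -1.51). SAV1, a scaffold protein of the pathway, fell from 4.66, 3.58 and 3.21 RPM to 0.442, 0.0877 and 0.738 RPM (-1.77 ± 0.33, adjusted p = 0.000173, rescaled -1.58). The kinase STK3 (-1.53 ± 0.44, adjusted p = 0.00815) and the target gene CTGF (-1.25 ± 0.48, adjusted p = 0.0396) fell in RPM only, and both calls ended without morula C (adjusted p up to 0.0533 and 0.182); that of CTGF also ended without morula B, blastocyst A or blastocyst B. YAP1 (0.30, adjusted p = 0.608) and WWTR1 (0.26, adjusted p = 0.744) were not called on either scale, nor were TEAD1, STK4, MOB1A, MOB1B and VGLL4. CYR61, a target gene like CTGF, rose when rescaled only (1.49).

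Genes of epithelial structure rose in part. Of 33 tested genes of cell junctions and polarity, 10 rose and 4 fell in RPM (median 0.26), against 7.74% and 28.1% of all genes. Rescaled, 14 rose and 2 fell (median 0.86), against 15.8% and 17.0% of all genes. The count of falls in RPM was 2 without morula C, without blastocyst A or without blastocyst B. The rescaled count of falls was 4 without morula A or blastocyst C and 5 without morula B. PATJ, a scaffold of the apical polarity complex, went from 8.95, 0.708 and 7.595 RPM to 63.7, 29.8 and 43.6 RPM (3.08 ± 0.52, adjusted p = 7.36e-05), and the desmosomal linker DSP from 0.499, 0.0416 and 2.42 RPM to 5.61, 9.77 and 2.13 RPM (1.79 ± 0.46, adjusted p = 0.00357), the latter with morula C above blastocyst C. The atypical protein kinase PRKCI was called (2.10 ± 0.60, adjusted p = 0.00752) but not without morula C (adjusted p = 0.0712). E-cadherin, CDH1, was at 7.53, 1.29 and 3.37 RPM and 4.26, 1.19 and 3.49 RPM and was not called on either scale (-0.24 ± 0.49, adjusted p = 0.725; rescaled 0.37). TJP1, a tight-junction scaffold, lay higher in every blastocyst (50.03, 49.8 and 47.1 RPM against 19.1, 38.2 and 22.1 RPM), just under the fold limit in RPM (0.92 ± 0.36, adjusted p = 0.0463) and called when rescaled (1.73). RHOA, a GTPase of the actin cytoskeleton, fell from 20.98, 27.5 and 49.9 RPM to 4.74, 1.61 and 14.96 RPM (-2.35 ± 0.47, adjusted p = 0.000368).

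Of 27 tested genes of actin and intermediate filaments, 10 rose and 7 fell in RPM (median 0.43), and 13 rose and 1 fell when rescaled (median 1.02). Of all genes, 7.74% rose and 28.1% fell in RPM, and 15.8% and 17.0% when rescaled. The 7 falls became 4 without morula B or blastocyst A and 3 without blastocyst B; rescaled, 0 to 2 fell with 1 library left out. Next to ACTB stood ACTG1, gamma-actin, which went from 371, 217 and 103 RPM to 2208, 3350.2 and 2166 RPM (3.63 ± 0.40, adjusted p = 3.75e-07), and LGALS1, a galectin, from 207, 133 and 39.2 RPM to 630.3, 335 and 854 RPM (2.45 ± 0.49, adjusted p = 0.00039). Annexins did not move together: ANXA1 rose (2.25 ± 0.51, adjusted p = 0.00146), ANXA6 rose (1.62 ± 0.23, adjusted p = 8.81e-06) and ANXA5 fell in RPM (-1.75 ± 0.53, adjusted p = 0.011), a call lost without blastocyst B. CFL1, cofilin, which severs actin filaments, fell from 38.7, 16.6 and 35.02 RPM to 14.2, 1.56 and 9.51 RPM (-1.98 ± 0.52, adjusted p = 0.00397; rescaled -1.32); without blastocyst B the change was -1.22. VIM, the mesenchymal filament vimentin, was called lower (-2.11 ± 0.79, adjusted p = 0.0395), but not when rescaled, without morula B or C, or without blastocyst A or B.

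Within the mitochondrial genome the rise was uneven. Of 13 protein genes 7 rose and none fell (median 1.72), against 7.74% and 28.1% of all genes in RPM. The 2 ribosomal RNA genes rose too (log2 fold changes of 2.5 and 2.64). Both ribosomal RNA calls ended without morula C (1.04 and 1.63, adjusted p = 0.305 and 0.0751) or without blastocyst C, and the first also without blastocyst B. Without morula C, which had the lowest mitochondrial share of the morulae, 4 of the 13 were called: COX2, ND6, COX1 and ND3. COX2, a subunit of cytochrome c oxidase, went from 478, 620.2 and 132 RPM to 5766, 9543 and 5189 RPM (4.27 ± 0.55, adjusted p = 2.67e-06), its blastocyst mean being 16.7 times its morula mean. COX1 went from 2239, 7174 and 1446 RPM to 13882, 28383 and 19708 RPM (2.79 ± 0.71, adjusted p = 0.00329), and ND6, encoded on the opposite strand, from 18.03, 42.6 and 6.74 RPM to 138, 281 and 177 RPM (3.36 ± 0.62, adjusted p = 0.000194). ND3 (2.55 ± 0.56, adjusted p = 0.00102) was the fourth of these. COX3 (1.95 ± 0.58, adjusted p = 0.00996), ATP6 (1.77 ± 0.69, adjusted p = 0.0456) and ND2 (1.72 ± 0.66, adjusted p = 0.0426) were not called without morula C; the call of ATP6 also ended without morula A or any one blastocyst, and that of ND2 without blastocyst A or C. ND1 was at 3035, 4723 and 1385 RPM and 3982, 2397 and 4907 RPM and was not called (0.41 ± 0.58, adjusted p = 0.604), with a blastocyst mean 1.23 times its morula mean. ATP8, CYTB, ND4, ND4L and ND5 were not called either.

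The make-up of mitochondrial mRNA therefore differed between the stages. COX2 made up 1.69, 1.34 and 1.19% of the reads of the 13 protein genes in morulae and 8.03, 9.56 and 4.72% in blastocysts; at the 5 earlier stages its mean was 0.869 to 1.21%. COX1 went from 12.2 ± 3.87% to 21.9 ± 5.70% and ND6 from 0.0723 ± 0.0173% to 0.212 ± 0.0625%. ND1 went the other way, from 10.8, 10.2 and 12.5% to 5.55, 2.40 and 4.47%. CYTB (6.28 ± 0.114% to 3.84 ± 0.714%) and ND5 (5.79 ± 0.438% to 3.44 ± 0.732%) also had lower shares. For these 6 genes the stages did not overlap, whereas the shares of the other 7 did; 3 against 3 cannot give an exact permutation p below 0.1. Of the genes that rose, COX1, COX2, ATP6, COX3 and ND3 lie next to one another between positions 5329 and 9808 of chromosome M. They are interrupted by ATP8, which overlaps ATP6 and was not called. The other genes that rose lie outside that stretch, ND2 at 3907 to 4949 and ND6 at 13552 to 14080. The ribosomal RNA genes, at 69 to 638 and 1092 to 2665, do so too. ND1, which was not called, lies at 2742 to 3698. Several of these genes overlap, and strandedness is not given, so reads of ND5 and ND6 or of ATP8 and ATP6 may be shared.

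**Figure D4:**
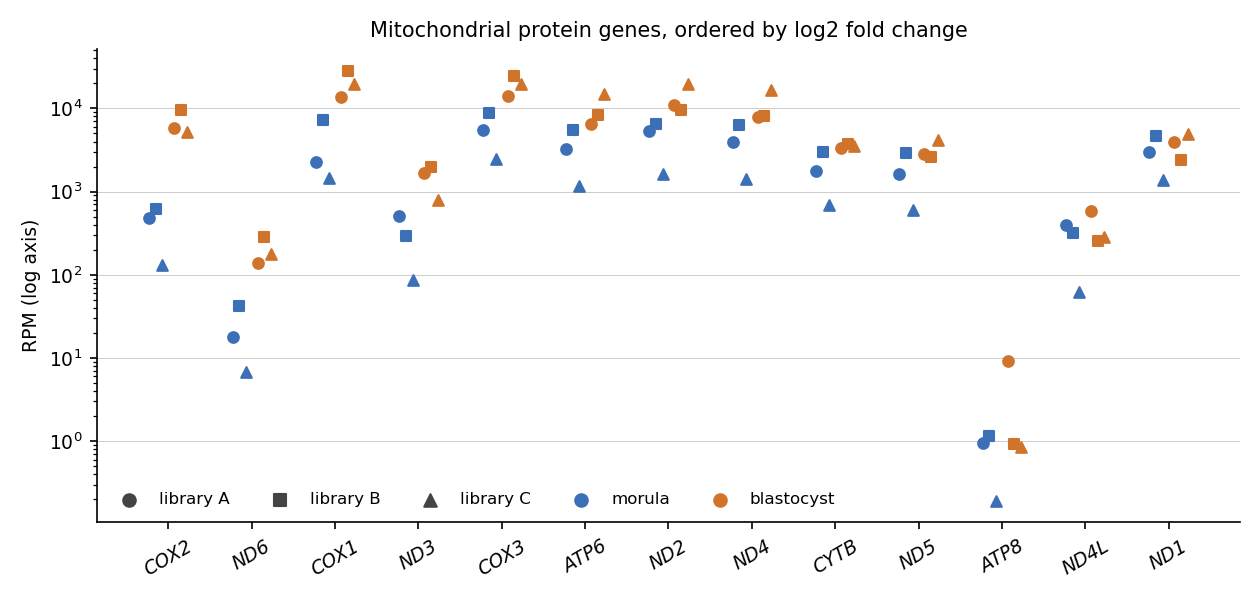
Level (RPM, log axis) of the 13 mitochondrial protein genes in each morula (blue) and blastocyst (orange) library, ordered from the largest to the smallest log2 fold change, with symbols for libraries A to C. COX2 and ND6, on the left, lie far higher in every blastocyst, ND1, on the right, overlaps between the stages, and morula C is the lowest morula for every gene.

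Nuclear genes of the respiratory chain also included more rises than falls. The list held 77 genes, of which 41 were found by symbol. Of 41 tested, 12 rose and 2 fell in RPM (median 0.53), against 7.74% and 28.1% of all genes. Rescaled, 23 rose and none fell (median 1.33), against 15.8% and 17.0% of all genes. The count of rises in RPM was 7 without morula C and 6 without blastocyst C, and the 2 falls became none without blastocyst B and 4 without blastocyst C. Rescaled, 1 fell without blastocyst A or blastocyst C. NDUFB10, a subunit of complex I, went from 11.3, 6.997 and 5.38 RPM to 55.9, 37.6 and 79.4 RPM (2.71 ± 0.43, adjusted p = 3.37e-05), NDUFA10 from 7.29, 2.499 and 1.03 RPM to 18.2, 23.3 and 26.2 RPM (2.58 ± 0.36, adjusted p = 7.93e-06) and cytochrome c1, CYC1, rose as well (2.06 ± 0.34, adjusted p = 6.23e-05). Proteins of the mitochondrial ribosome fell about as often as all genes in RPM. Of 56, 1 rose and 17 fell in RPM (all genes 7.74% and 28.1%; median -0.63 against -0.50), and 4 rose and 6 fell when rescaled (median 0.07). The 17 became 11 without morula A, 9 without blastocyst B and 27 without blastocyst C, and the rise had a second beside it without morula A, morula B, blastocyst A or blastocyst B; rescaled, 2 rose without morula B and 3 fell without blastocyst B. MRPL32 fell from 123, 109.7 and 89.4 RPM to 13.7, 2.74 and 39.9 RPM (-3.04 ± 0.53, adjusted p = 0.0001; rescaled -2.32) and MRPS18B from 79.6, 92.4 and 135 RPM to 10.6, 3.53 and 56.5 RPM (-2.80 ± 0.57, adjusted p = 0.000462; rescaled -2.08). MRPL14 rose from 5.14, 4.08 and 4.75 RPM to 9.34, 14.7 and 20.6 RPM (1.43 ± 0.31, adjusted p = 0.000895).

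Many factors that assemble ribosomes in the nucleolus fell. Of 52 tested, none rose and 36 fell in RPM (median -1.42 against -0.50 over all genes), against 7.74% and 28.1% of all genes. Rescaled, none rose and 22 fell (median -0.79 against -0.13), against 15.8% and 17.0% of all genes. With single libraries left out, 29 to 38 fell in RPM and 15 to 22 when rescaled, where 1 rose without blastocyst C. BRIX1, an assembly factor of the large subunit, went from 471, 518 and 372 RPM to 45.5, 19.97 and 168 RPM (-3.04 ± 0.51, adjusted p = 7.15e-05; rescaled -2.24). IMP3, of the small-subunit processome, went from 71.8, 51.02 and 62.4 RPM to 6.07, 1.18 and 24.2 RPM (-3.09 ± 0.55, adjusted p = 0.000132; rescaled -2.47). SDAD1 went from 183, 107 and 255 RPM to 25.7, 9.72 and 43.98 RPM (-2.87 ± 0.45, adjusted p = 3.38e-05). In these genes blastocyst B was the lowest and blastocyst C the highest blastocyst. Cytosolic ribosomal proteins, by contrast, had 2 falls and no rise among 30 in RPM (median -0.34). Rescaled, they had 3 rises and no fall (median 0.47). With 1 library left out, 0 to 7 fell in RPM (7 without blastocyst C, 5 without morula C). In those fits 1 to 7 rose when rescaled (7 without morula A or blastocyst C). Only 30 of the 79 ribosomal proteins on that list were found by symbol, against 53 of 61 assembly factors. Genes of cytosolic ribosomal proteins have near-identical copies, which makes their values uncertain.

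Counts for other genes of RNA and protein production are set against 28.1% falls and 7.74% rises over all genes in RPM and 17.0% and 15.8% when rescaled. Of 35 tested splicing genes 16 fell and none rose in RPM, and 8 fell and 3 rose when rescaled; without blastocyst B, 9 and 5 fell, and the 3 rises became none without morula A or blastocyst B and 1 without morula C or blastocyst A. SRSF10, a splicing regulator, went from 109, 95.2 and 81.3 RPM to 11.3, 7.11 and 24.9 RPM (-2.80 ± 0.39, adjusted p = 7.37e-06). Of 42 translation factors and tRNA synthetases 16 fell and 4 rose in RPM, against 7 and 9 when rescaled, so the balance turned with the scale; without morula C, 2 rose in RPM, and 4 and 3 fell when rescaled without blastocyst A or B. EIF1, an initiation factor that guards start-site choice, fell from 298, 690.0 and 1701 RPM to 78.1, 25.1 and 126 RPM (-3.46 ± 0.58, adjusted p = 6.34e-05), and the elongation factor subunit EEF1B2 rose from 129, 30.3 and 74.3 RPM to 318, 411 and 707 RPM (2.75 ± 0.59, adjusted p = 0.000808). Proteasome subunits did not fall more often than all genes: 8 of 32 fell and 1 rose in RPM (2 and 3 when rescaled), and the 8 became 5 without blastocyst A, 4 without blastocyst B and 17 without blastocyst C, and rescaled the 2 became 0, 0 and 7 (1 without morula A); 2 rose in RPM without morula B or blastocyst B. PSMD10 fell from 75.6, 37.4 and 27.9 RPM to 6.83, 3.67 and 27.2 RPM (-2.12 ± 0.51, adjusted p = 0.0021).

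Most mitotic genes fell. Of 40 tested, 32 fell and 1 rose in RPM (median -1.90), and 21 of 39 fell and 2 rose when rescaled (median -1.43). With 1 library left out, 23 to 33 fell in RPM, the lowest without blastocyst B, and 16 to 23 when rescaled. UBE2C, the ubiquitin-conjugating enzyme of the anaphase-promoting complex, went from 344, 558 and 894 RPM to 23.8, 3.28 and 74.3 RPM (-4.80 ± 0.65, adjusted p = 5.30e-06; rescaled -4.07). MAD2L1, of the spindle checkpoint, went from 324, 291 and 398 RPM to 18.7, 2.32 and 78.9 RPM (-4.28 ± 0.64, adjusted p = 1.86e-05), and CDK1, the kinase that drives entry into mitosis, from 375, 435 and 476 RPM to 32.4, 8.44 and 113 RPM (-3.70 ± 0.58, adjusted p = 3.08e-05; rescaled -2.92). For all 3 every blastocyst lay below every morula, with blastocyst B lowest. The 1 rise, SPC24 of the kinetochore (1.57 ± 0.44, adjusted p = 0.00608), was lost without morula C or blastocyst C. Genes of G1, S phase and replication had 16 falls and 1 rise among 48 in RPM (median -0.56) and 8 falls and 5 rises when rescaled. Falls in this list were near the shares of all genes, 28.1% in RPM and 17.0% when rescaled. How the mitotic list and this one differ was not tested. PCNA, the replication clamp, went from 519, 907 and 1814 RPM to 69.2, 21.7 and 424 RPM (-3.44 ± 0.69, adjusted p = 0.000415; rescaled -2.64), and GMNN, geminin, from 225, 432 and 362 RPM to 40.3, 10.4 and 166 RPM (-2.94 ± 0.61, adjusted p = 0.000558). MCM5, of the replicative helicase, was the rise, from 0.713, 0.541 and 3.53 RPM to 8.33, 13.3 and 4.91 RPM (2.01 ± 0.48, adjusted p = 0.00183). In this second list 10 fell without blastocyst B and 2 rose without morula B in RPM, and rescaled, 2 rose without blastocyst B and 8 without blastocyst C.

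Of 33 tested maternal-effect and oocyte genes, 14 fell and 2 rose on each scale (median -0.98; rescaled -0.49), against falls of 28.1% and 17.0% over all genes. Without morula C, 9 fell in RPM and 8 when rescaled, against 23.7% and 14.2% over all genes, so that in RPM the share then lay near that of all genes. The rises were 1 in RPM without morula B or blastocyst B and 4 when rescaled without blastocyst C. Their summed level was 195 to 2120.1 RPM in morulae, the highest in morula C, and 60.4 to 89.4 RPM in blastocysts. BMP15, an oocyte growth factor, went from 4.08, 19.1 and 165 RPM to 0, 0.439 and 0.681 RPM (-4.26 ± 0.74, adjusted p = 0.000102), with morula C the highest by far. Of 14 genes linked to genome activation 8 fell and 1 rose in RPM (4 and 1 when rescaled), and without blastocyst B 5 fell in RPM and 2 rose when rescaled. PNRC1, a nuclear receptor coactivator, fell from 79.7, 56.1 and 161 RPM to 6.16, 1.11 and 6.36 RPM (-4.24 ± 0.47, adjusted p = 4.22e-07).

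The enzymes of DNA methylation moved in opposite directions. DNMT3B, a de novo methyltransferase, went from 1.03, 1.25 and 2.55 RPM to 30.4, 122 and 14.2 RPM (3.94 ± 0.56, adjusted p = 9.57e-06; rescaled 4.76), highest in blastocyst B, and DNMT3A, the other de novo enzyme, from 10.7, 1.54 and 4.898 RPM to 22.02, 17.4 and 36.9 RPM (2.17 ± 0.46, adjusted p = 0.00066). DNMT1, the maintenance enzyme, fell from 9.65, 8.29 and 148 RPM to 2.16, 0.7897 and 1.25 RPM (-3.39 ± 0.76, adjusted p = 0.00123; rescaled -2.88); without morula C, its highest library, the change was -2.09 and still called. In the list of DNA methylation and histone modifiers as a whole, 3 of 52 rose and 14 fell in RPM (median -0.41), against 7.74% and 28.1% of all genes. Rescaled, 7 rose and 7 fell (median 0.07), against 15.8% and 17.0% of all genes. Neither direction was thus more frequent than over all genes. The 3 rises became 5 without morula A, and the 7 rescaled rises became 4 without morula C and 12 without blastocyst C. HDAC2, a histone deacetylase, fell from 141, 371 and 398 RPM to 36.2, 46.1 and 52.95 RPM (-2.60 ± 0.39, adjusted p = 1.80e-05), and EED, of the Polycomb complex that methylates histone H3, from 104, 127 and 59.01 RPM to 12.4, 5.35 and 53.7 RPM (-2.48 ± 0.52, adjusted p = 0.000613).

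Fatty acid synthesis genes were among the metabolic genes that rose. The metabolic counts stand against 7.74% rises and 28.1% falls over all genes in RPM and 15.8% and 17.0% when rescaled. In sterol and lipid metabolism 9 of 24 rose and 4 fell in RPM (9 and 2 when rescaled), and without blastocyst B 5 rose and 7 fell; 2 fell in RPM without blastocyst A or C. Rescaled, 5 fell without blastocyst B and 1 without morula C, blastocyst A or blastocyst C. The fatty acid elongase ELOVL6 went from 5.797, 6.25 and 10.2 RPM to 202, 222 and 116 RPM (4.41 ± 0.37, adjusted p = 6.19e-09; rescaled 5.23), and fatty acid synthase, FASN, from 0.678, 0.125 and 0.193 RPM to 10.9, 26.1 and 3.52 RPM (3.11 ± 0.38, adjusted p = 1.29e-06). MSMO1, an enzyme of cholesterol synthesis, fell from 586, 911 and 626 RPM to 21.2, 48.03 and 60.8 RPM (-4.10 ± 0.40, adjusted p = 5.29e-08; rescaled -3.30). In glucose uptake and glycolysis 3 of 15 rose and none fell (6 and none when rescaled); 3 fell in RPM without morula C, 2 without blastocyst C and 1 without blastocyst B. PKM, pyruvate kinase, went from 3.66, 3.93 and 3.09 RPM to 9.87, 144 and 12.6 RPM (2.61 ± 0.63, adjusted p = 0.00201), high in blastocyst B above all, and its change without that library was 1.42. Among amino acid and nutrient transporters 4 of 14 rose and 2 fell (5 and 1 of 15 when rescaled). SLC1A3, a glutamate transporter like SLC1A1, went from 11.2, 0.333 and 1.73 RPM to 78.5, 16.8 and 49.97 RPM (3.55 ± 0.55, adjusted p = 3.32e-05), and SLC3A2, the heavy chain of several amino acid exchangers, from 5.96, 2.04 and 2.83 RPM to 15.5, 17.005 and 13.4 RPM (1.91 ± 0.35, adjusted p = 0.000197). Both falls of that list were lost without blastocyst B, and 1 was lost without morula C, blastocyst A or blastocyst C; rescaled, 0 to 3 fell with 1 library left out (3 without morula A).

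In endocytosis and lysosome genes 4 of 18 rose and 2 fell in RPM, against 7.74% and 28.1% of all genes. Rescaled, 6 of 19 rose and 1 fell, against 15.8% and 17.0% of all genes. In RPM, 4 fell without morula B and 1 without morula C, blastocyst A or blastocyst B. Rescaled, 2 fell without morula A and none without blastocyst B. GLB1, the lysosomal beta-galactosidase, had no read in any morula and 10.4, 11.3 and 5.902 RPM in blastocysts, at least 122-fold higher against a floor of 3 reads per library. CTSV, a cathepsin, was at 3995, 4929 and 1500.3 RPM in morulae and 621, 39.4 and 1536 RPM in blastocysts (-3.19 ± 0.83, adjusted p = 0.00428; rescaled -2.39); blastocyst C lay above morula C, and without blastocyst B the change was -1.66.

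Stress genes moved both ways, with 6 of 40 rising and 9 falling in RPM, against 7.74% and 28.1% of all genes. Rescaled, 11 rose and 6 fell (3 falls without blastocyst B), against 15.8% and 17.0% of all genes. Falls were thus no more frequent than over all genes on either scale. DDIT3, a transcription factor of the unfolded protein response, fell from 64.7, 118 and 494 RPM to 7.05, 3.86 and 10.8 RPM (-4.34 ± 0.55, adjusted p = 2.25e-06; rescaled -3.63), and DNAJB9, a chaperone of the endoplasmic reticulum, from 166, 152 and 287 RPM to 19.1, 3.04 and 33.7 RPM (-3.78 ± 0.55, adjusted p = 1.23e-05). Of the antioxidant enzymes, GPX1, a glutathione peroxidase, rose from 26.9, 14.6 and 12.3 RPM to 55.04, 119.6 and 93.5 RPM (2.26 ± 0.48, adjusted p = 0.000685), whereas SOD1 fell from 54.99, 80.04 and 82.6 RPM to 14.1, 8.07 and 40.9 RPM (-2.01 ± 0.49, adjusted p = 0.00215; rescaled -1.25). Of 9 tested apoptosis genes 4 fell and none rose in RPM, and 1 fell and 2 rose when rescaled, beside the same shares of all genes. Rescaled, with 1 library left out, 1 to 3 fell (3 without morula A or blastocyst B). In those fits 0 to 3 rose (none without morula C or blastocyst A, 3 without blastocyst B).

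Of 35 tested genes of growth factor signalling 4 rose and 7 fell in RPM, against 7.74% and 28.1% of all genes. Rescaled, 7 of 34 rose and 5 fell, against 15.8% and 17.0% of all genes. Falls were thus no more frequent than over all genes on either scale. SMAD7, the inhibitory SMAD of TGF-beta and BMP signalling, went from 3.46, 1.54 and 1.25 RPM to 47.1, 26.2 and 17.1 RPM (3.29 ± 0.40, adjusted p = 1.20e-06), and IGFBP2, a carrier of insulin-like growth factors, from 0.214, 0 and 0.0161 RPM to 14.5, 7.98 and 4.28 RPM (3.07 ± 0.24, adjusted p = 2.35e-09). MET, the receptor of hepatocyte growth factor, rose to 5.57, 1.07 and 1.31 RPM (1.61 ± 0.29, adjusted p = 0.000144). DKK1, a secreted WNT inhibitor, fell from 92.8, 126 and 40.7 RPM to 6.78, 0.737 and 6.16 RPM (-4.11 ± 0.53, adjusted p = 3.05e-06; rescaled -3.54), LRP6, the WNT co-receptor, fell (-1.79 ± 0.44, adjusted p = 0.00267) and ID3, a target of BMP signalling, fell from 2.27, 7.54 and 8.33 RPM to 0.177, 0.491 and 0.114 RPM (-2.35 ± 0.45, adjusted p = 0.000281).

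**Figure D5:**
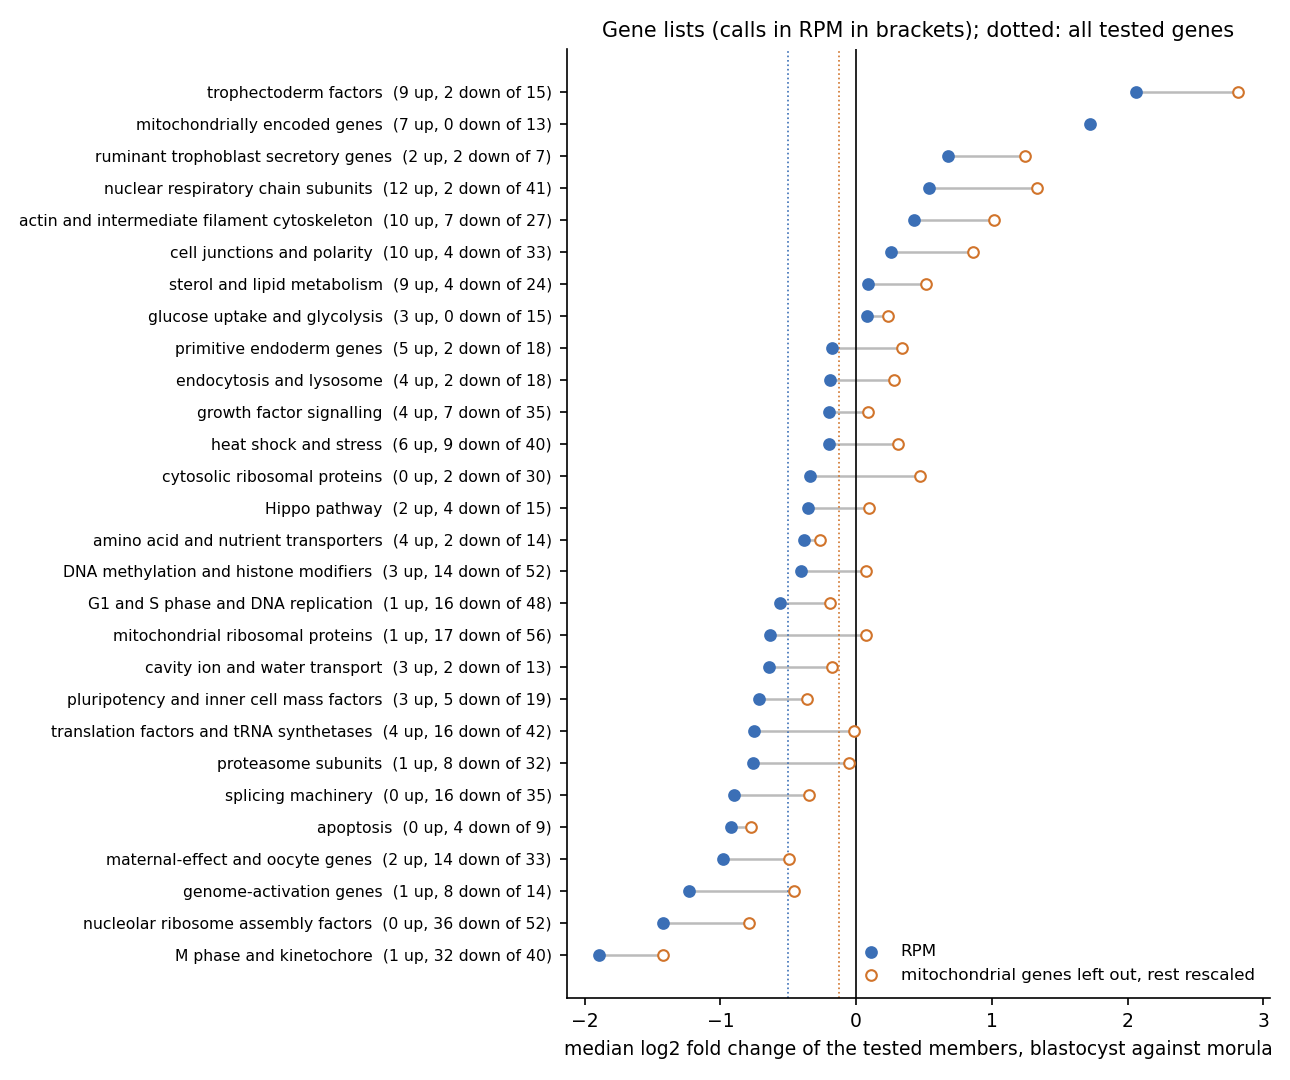
Median log2 fold change of the tested members of each gene list in RPM (filled) and with mitochondrial genes left out and the rest rescaled (open), with the calls in RPM in brackets; dotted lines mark the median of all tested genes on each scale. Trophectoderm factors lie highest (2.06 and 2.81) and mitotic genes lowest (-1.90 and -1.43), and for 8 lists the median changes sign with the scale.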

How the data were processed

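The authors deposited one table of RPKM values for 19040 genes in 21 libraries of total RNA (3 per stage, 7 stages); FastQC, STAR 2.5.3a and Partek are named per the submitters' processing notes, and the genome build is not given in the sources used here. Low values step in whole reads (94.2 to 96.0% within 0.05 of a whole number in the 6 libraries compared), which gave depth: 8.47 to 22.2 M gene reads per library. From the deposited RPKM an offset of 0.01 was removed and the division by gene span undone, because on RPKM most long genes fall below a filter of 1. Genes with at least 1 RPM in 3 of 21 libraries were fitted with limma 3.58.1 (trend, robust; statmod 1.5.0, R 4.3.3) on log2(RPM + 1) in a model of 7 stages, with Benjamini-Hochberg adjustment over all genes tested; fold changes on that scale understate the change of low genes. Replicate letters were not used as a block. On simulated data for this comparison with 10384 genes, 61% of genes changed 4-fold, 9% of those changed 2-fold and 0.0589% of unchanged genes were called. The simulated noise was drawn for each gene on its own, without shifts of whole libraries such as that of morula C. Changes were given only to genes of higher level in morulae. These rates may therefore not hold for the real libraries.

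The genes compared and the lists were chosen with earlier results of these data known. Genes were named as the 15 largest rises and falls with non-overlapping libraries and a mean of at least 20 RPM, up to 3 rises and 3 falls of each list, the tested members of the trophectoderm, pluripotency, primitive endoderm, cavity and Hippo lists, and mitochondrial genes. ANXA1, ANXA5, ANXA6, CDH1, CYC1, DNMT1, LGALS1, TJP1, the marker genes and the untested genes were added after their values were seen. Genes without a symbol (5717 of 19040) were counted but not named, and some genes that carry one are counted but not reported here. Alternatives covered scaling, filters, pseudocounts, libraries left out and a replicate block. Figures were drawn with matplotlib 3.10.9.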

Additional observations from a re-analysis of the deposited data

How the results depend on the processing

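The count of genes called in RPM (3727) was 1244 on RPKM values, 2097 with a pseudocount of 5 and 1282 with the 6 morula and blastocyst libraries alone. The count with mitochondrial genes left out (3429) was 1155, 1996 and 1275 under the same settings, where fewer genes or samples entered the first and the third and the cause was not tested for the second. Leaving out 1 of the 6 libraries gave 3040 to 4059 calls in RPM and 2887 to 3710 rescaled. The difference in the mitochondrial share of gene reads (27.9 percentage points) ranged from 23.4 to 30.9 points without single libraries, and that in genes detected (-983) from -1322 to -552. The difference in genes detected reversed to 289 with mitochondrial genes left out and the rest rescaled. STAR, at -0.08 and not called, was at 1.15 without morula C (adjusted p = 0.0493, limma) and at 1.15 without 16-cell C and morula C (adjusted p = 0.015), and ranged from -0.71 to 1.15 without single libraries. A replicate block by letter gave 3734 calls in RPM and 3449 rescaled; libraries of the same letter deviated together for A (r = 0.236) but not for B (r = -0.058) or C (r = -0.174), so the letters were not taken to pair samples, and not every library correlated best with its own letter. Of 821 genes followed, the block left 811 on the same side of the threshold. Rescaling, among 803 of them, left 629, ended 108 calls and made 66, and reversed none. Setting the total of listed genes equal with mitochondrial genes kept was not run for the rescaled comparison. Depth limits genes at or below 3 reads, 0.0482 to 0.125 RPM in these libraries: 25 genes that rose were at or below it in all morulae, and 84 that fell in all blastocysts.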

Other observations

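Genes on one unplaced scaffold of the table rose more often than they fell. The scaffold was singled out after its values were seen. Of its 16 tested genes 5 rose and none fell in RPM (31.2%, against 7.74% of all genes), with a median log2 fold change of 0.51 against -0.50. Rescaled, 11 of 17 rose and none fell (median 1.17, against -0.13). SLC7A4, a member of the cationic amino acid transporter family, went from 0.0535, 0 and 0 RPM in morulae to 3.25, 1.97 and 1.19 RPM in blastocysts (limma on log2(RPM + 1), 1.57 ± 0.18, adjusted p = 5.18e-07). TANGO2 was also called in RPM (1.11 ± 0.30, adjusted p = 0.00517), and 2 of the 5 carry no symbol. DGCR8, which works with DROSHA in microRNA processing, was at 1.70 (rescaled log2 fold change, adjusted p = 0.00171) and RANBP1, a regulator of the GTPase Ran, at 1.28 (adjusted p = 0.0144); both were called when rescaled only. On chromosome M 9 of 15 genes rose, and on chromosome 29, the highest of the numbered chromosomes, 10.8%.

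Genes of the stromal and leukocyte marker lists did not move together. COL1A2, a chain of collagen I, was at 0.589, 8.33 and 6.44 RPM in morulae and had no read in any blastocyst, at least 75.3-fold lower against a floor of 3 reads per library, while SPARC, a matrix protein on the same stromal list, rose from 20.9, 15.03 and 5.33 RPM to 73.1, 31.3 and 47.3 RPM (1.90 ± 0.42, adjusted p = 0.000933). Among leukocyte markers CORO1A, which binds actin, rose from 3.67, 2.75 and 2.1999 RPM to 12.7, 8.58 and 7.89 RPM (1.46 ± 0.28, adjusted p = 0.000269). The part that stromal or blood cells may have in these values was not tested.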
